A study of Homo sapiens with 6 samples.

Results

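The genes described here are 8 long non-coding RNAs measured in human melanoma xenografts: RMEL3, SAMMSON, LINC00518, BANCR, LINC02552, LINC01537, LINC01116 and LINC01087. They were chosen by name, as RNAs known from melanoma or intergenic RNAs whose counts were seen to move in these tumors, so their differences between treatments and between the tumor sets below are a description with no p-value. Where members that pass the threshold used for all genes are counted, that count is part of the description. The one test applied to them is whether the treatment difference itself differs between the sets. All 8 were among the 60617 gene identifiers counted, and 6 of them (all but LINC01116 and LINC01087) passed the low-count filter with 20423 genes. The annotation classes 14875 identifiers as long non-coding genes, of which 3675 passed.

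Long non-coding RNAs are transcripts that are not translated into protein. Many are made in few tissues, and melanocytes and melanomas have their own set, in part driven by the lineage factors SOX10, MITF and TFAP2A. RMEL3 is a transcript found mainly in melanoma and tied to growth signaling in BRAF-mutant cells. SAMMSON is made from a locus beside MITF under the control of SOX10, and its RNA supports melanoma growth by binding the mitochondrial protein p32, which is encoded by C1QBP. LINC00518 is another melanocyte-lineage RNA and is used with PRAME in a skin-patch test for melanoma, and BANCR was found as an RNA switched on by mutant BRAF and linked to melanoma cell migration.

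RNA was sequenced from 6 xenograft tumors grown from WM983-B cells, a human melanoma line. In 3 tumors the treatment was anle138b given systemically, and 3 were untreated. Anle138b is a small molecule made to bind aggregates of proteins such as α-synuclein, and the study asked what it does in melanoma. The tumor names fall into 2 sets, 4 tumors marked Juni2018 (anle138b tumors 1 and 2, untreated tumors 1 and 2) and 2 tumors marked blau (anle138b tumor 3 and untreated tumor 3), called here the 4-tumor set and the 2-tumor set. What the sets stand for is not given in the labels, and neither are dose, duration or the host animal. All tumors come from 1 cell line, and nothing says that each came from a separate animal, so p-values measure only the spread between these libraries.

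Depth was 12400782 to 27599159 counts per tumor, with the 2-tumor set deepest. A floor of 3 counts stood for 0.106 to 0.240 CPM (depth-scaled counts, after TMM scaling), and intervals and floors cover counting error only. The tumors carried the melanoma markers MLANA, PMEL, TYR, DCT, SOX10, MITF and S100B at a summed 14724 to 18499 CPM with anle138b and 13312 to 18151 CPM untreated. By naming set these sums did not overlap, at 13312 to 14724 CPM in the 2-tumor set and 14940 to 18499 CPM in the 4-tumor set. Summed markers of leukocytes (4 genes) were 21.7 to 33.8 CPM with anle138b and 14.6 to 29.96 CPM untreated, and those of endothelium (3 genes) were 3.04 to 4.51 CPM and 3.78 to 5.18 CPM in the same order of groups. The leukocyte sum was mostly LYZ, with a median of 21.2 CPM against 4.45 for PTPRC, 0.344 for CD68 and 0 for CD3E. Skeletal muscle markers (3 genes) summed to 8.67 to 9.12 CPM in the 2-tumor set and 14.4 to 33.8 CPM in the 4-tumor set, and keratinocyte markers (3 genes) to 0.849 to 3.27 CPM and 0.229 to 0.667 CPM. All are human genes counted in xenografts, and the handling of host reads is not given, so these sums are no measure of host cells. The part of these lists in the differences below was not tested. In bulk tumors, fewer cells of a kind and less RNA per cell cannot be told apart.

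The 8 RNAs differed widely in level. Per kilobase of annotated exon, and over all 6 tumors, LINC00518 had 29.2 ± 3.62, SAMMSON 17.3 ± 4.72, BANCR 11.4 ± 10.5 and RMEL3 4.72 ± 8.46 CPM per kb (SD, n = 6). On the same scale LINC02552 had 2.04 ± 2.19, LINC01116 1.23 ± 1.87, LINC01537 0.816 ± 0.604 and LINC01087 0.689 ± 1.02 CPM per kb. LINC00518 stood above SAMMSON by more than the SD of either, whereas from SAMMSON down each neighbour in this order differed from the next by less than the larger SD of that pair. With the longest transcript as the length, SAMMSON, which has 27 annotated transcripts, came first at 99.4 CPM per kb and LINC00518 had 35.7 CPM per kb. Among the 11700 long non-coding genes with any count, LINC00518 ranked 34, SAMMSON 75, BANCR 150 and RMEL3 538 per kilobase. SAMMSON alone supplied 68.8% to 81.6% of the counts of the 8 genes, and together they took 0.691% to 1.12% of all long non-coding counts.

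**Figure D1:**
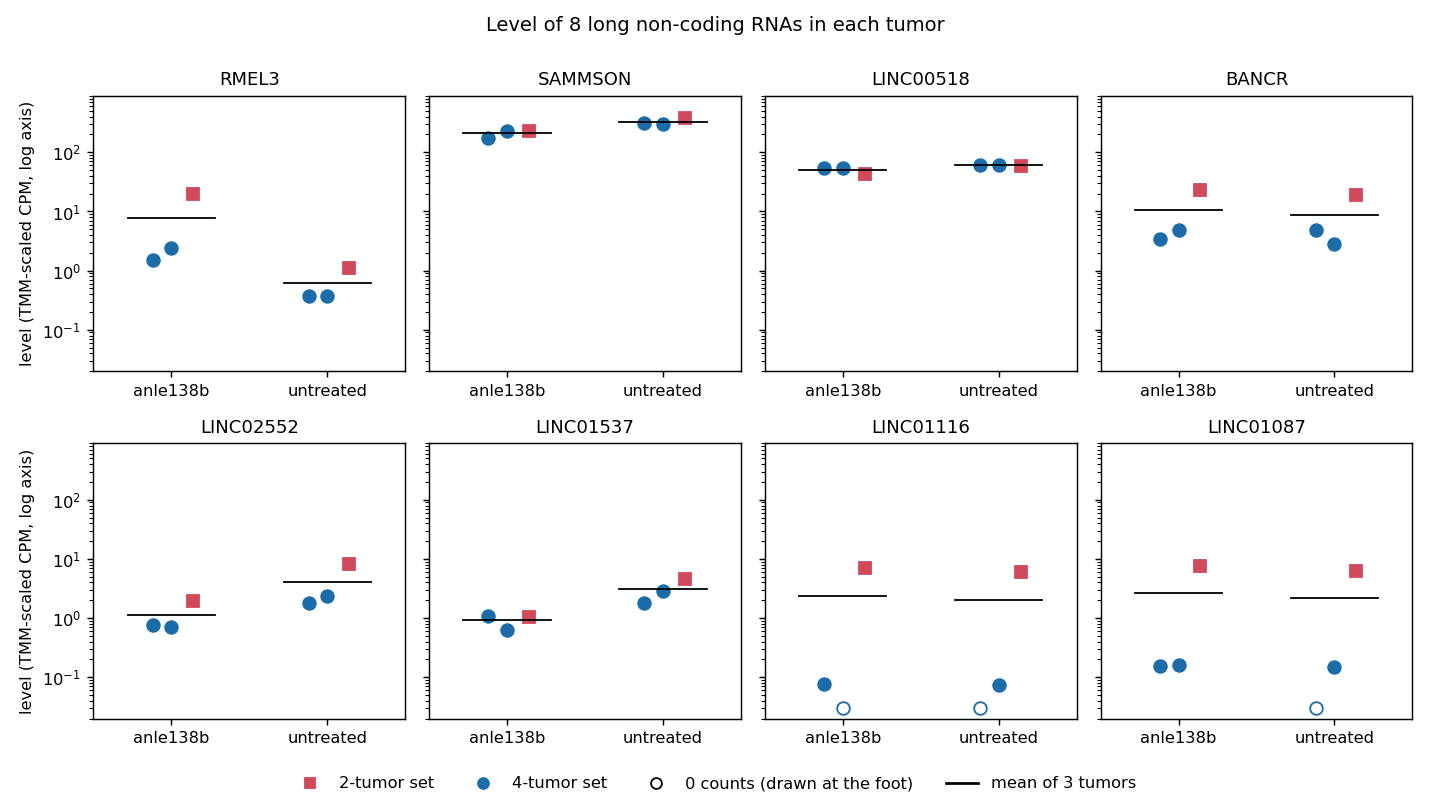
Level of each RNA (TMM-scaled CPM, log axis) in each of 6 tumors, anle138b left and untreated right in every panel. Squares are the 2-tumor set, circles the 4-tumor set, open symbols at the foot are 0 counts and bars are means of 3. RMEL3 stands higher in all anle138b tumors, SAMMSON, LINC00518 and LINC01537 stand lower, and LINC01116 and LINC01087 are near 0 in all 4 circles.

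RMEL3 was the one member higher in every anle138b tumor. RMEL3 (ENSG00000250961) lies at chr5:57395060-57533424 on the plus strand (GRCh38), with 4 exons spread over an antisense-class gene of 138365 bases. Its start and that of LINC01537, are shown here to set the RNA that stood higher beside one that stood lower. Each run is 250 bases before and 50 after the RefSeq start (GRCh38.p14), in the direction of transcription, at chr5:57394857-57395156 on the plus strand and chr11:72570406-72570705 on the plus strand, with CpG dinucleotides in capitals.
RMEL3: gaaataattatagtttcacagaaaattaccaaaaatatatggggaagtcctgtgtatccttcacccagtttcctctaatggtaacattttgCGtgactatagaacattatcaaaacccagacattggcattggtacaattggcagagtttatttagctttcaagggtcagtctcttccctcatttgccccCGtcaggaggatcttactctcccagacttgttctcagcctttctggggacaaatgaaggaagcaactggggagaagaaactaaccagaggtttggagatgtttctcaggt
LINC01537: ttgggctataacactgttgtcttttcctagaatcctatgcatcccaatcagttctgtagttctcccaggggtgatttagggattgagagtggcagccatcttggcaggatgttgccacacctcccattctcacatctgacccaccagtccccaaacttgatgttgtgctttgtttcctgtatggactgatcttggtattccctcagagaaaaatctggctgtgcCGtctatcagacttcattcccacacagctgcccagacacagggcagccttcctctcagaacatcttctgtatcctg
Both windows are poor in CpG. RMEL3 has 2 and LINC01537 has 1, against a median of 14 over 35116 RefSeq promoter windows of the same length, and their GC contents are 41.7% and 48.7% against a median of 58.7%. The E boxes CACGTG and CATGTG, the SOX words ACAAAG and ACAATG and the TATA word TATAAA were searched on both strands. None is in the RMEL3 window, and LINC01537 has ACAAAG once, on the opposite strand. These words are held by 7.26%, 11.1%, 16.1%, 10.8% and 11.5% of all windows in the order named, and at least 1 of them by 43.4%. A match is a description of letters and not a binding site.

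RMEL3 had 20, 30 and 555 counts in anle138b tumors 1 to 3, against 6, 5 and 26 counts in untreated tumors 1 to 3. As levels these were 1.53, 2.40 and 19.6 CPM with anle138b and 0.365, 0.370 and 1.10 CPM untreated. Every anle138b tumor stood above every untreated tumor, and anle138b tumor 3 stood far above all others. The mean level was 7.85 ± 10.2 CPM with anle138b and 0.613 ± 0.424 CPM untreated (SD, n = 3 each), and the fitted log2 change with naming set in the model was 3.52 ± 0.39 (SE). Within the 2-tumor set the log2 difference was 4.02 and within the 4-tumor set 2.08. Whether these differ was tested by the interaction term, which was 1.76 in log2 with an adjusted p of 0.736 (edgeR quasi-likelihood, Benjamini-Hochberg over all genes; unadjusted p of 0.0218). The 2-tumor set holds 1 tumor per treatment, so the spread behind the interaction term comes from the 4-tumor set alone. A single unusual tumor therefore cannot be told apart from a difference between the sets. Without anle138b tumor 3 the log2 change of RMEL3 was 2.39, and without untreated tumor 3 it was 2.40.

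Of the genes inside the RMEL3 introns, SALL4P1 followed the same split by treatment. SALL4P1, a pseudogene of the transcription factor gene SALL4 on the same strand (chr5:57422464-57424391), had 8, 19 and 207 counts with anle138b and 0, 0 and 3 counts untreated. All anle138b tumors were above all untreated ones. It missed the low-count filter of the main fit and has no test there. In a fit filtered by naming set, added after the data were seen, its log2 change was 5.95 ± 0.58 (SE; adjusted p = 0.00112, edgeR). SALL4P1 entered that fit only through anle138b tumors, where it was high, so this value is a description. With at most 3 counts in each untreated tumor, its size is imprecise. ACTBL2, an actin-like gene on the opposite strand (chr5:57480016-57482809), had 14, 17 and 364 counts with anle138b and 14, 4 and 43 counts untreated. The groups overlapped, and its log2 change of 2.09 ± 0.43 missed the threshold in edgeR (adjusted p = 0.0619) and passed it in DESeq2 (adjusted p = 0.00532) and limma voom (adjusted p = 0.0199). Over 14 alternatives its adjusted p was 4.16e-09 to 0.99995, and 9 of them did not pass. Neither gene shares an exonic base with RMEL3. SALL4P1 is on the strand of RMEL3, and the library kit named, TruSeq RNA v2, does not mark strand. Reads of SALL4P1 and of ACTBL2 therefore cannot be told apart from those of unspliced RMEL3 RNA. The counts of a pseudogene or an actin-like gene may also be shared with its parent genes. The coding genes on either side, GPBP1 with a log2 change of 0.10 ± 0.09 (adjusted p = 0.901) and the kinase gene PLK2 with 0.25 ± 0.13 (adjusted p = 0.690), did not pass the test in edgeR.

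**Figure D2:**
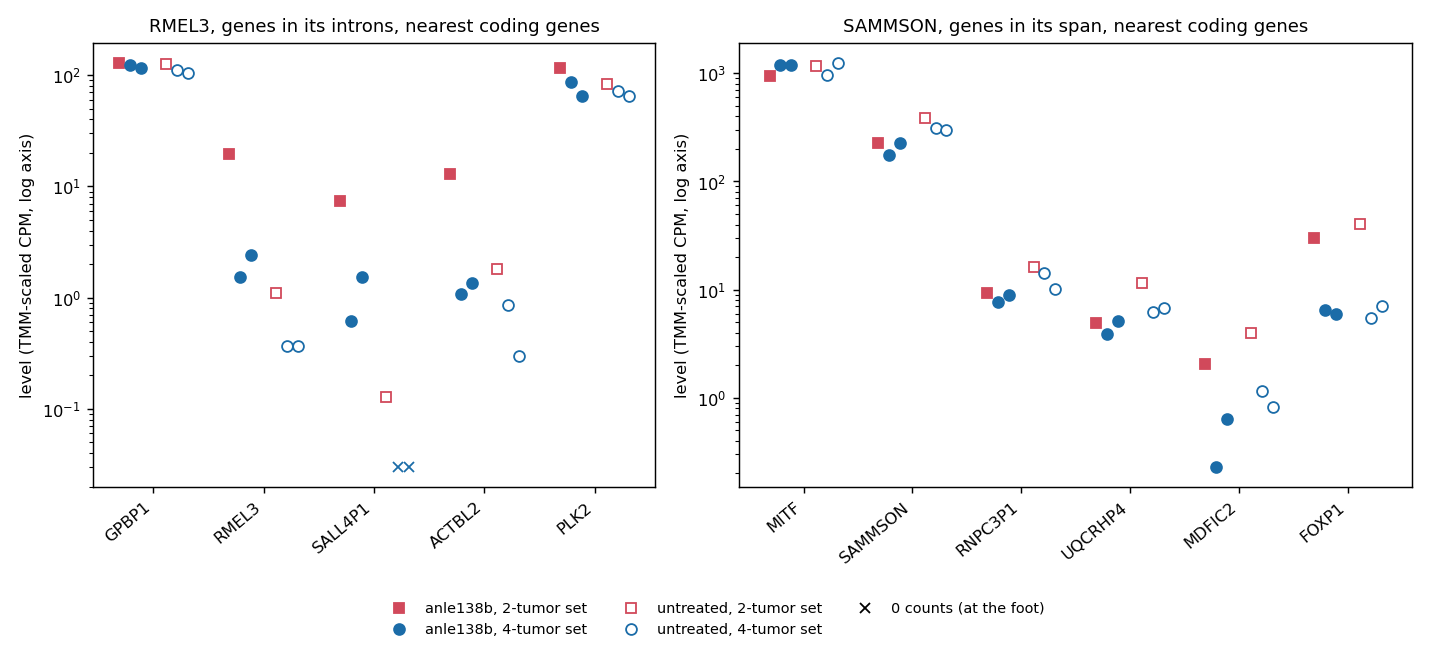
Level (TMM-scaled CPM, log axis) of RMEL3 and SAMMSON with the genes inside their spans and the nearest coding genes, in each tumor. Filled symbols are anle138b and open symbols untreated, squares the 2-tumor set and circles the 4-tumor set, and crosses at the foot are 0 counts. SALL4P1 is separated by treatment as RMEL3 is, while GPBP1, PLK2 and MITF overlap between treatments.

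SAMMSON was lower in every anle138b tumor. SAMMSON (ENSG00000240405) spans chr3:69999550-70518064 on the plus strand, and it had 2322, 2857 and 6430 counts in anle138b tumors 1 to 3 and 5162, 4012 and 9014 counts in untreated tumors 1 to 3. The levels were 178, 228 and 228 CPM with anle138b and 314, 297 and 382 CPM untreated. No anle138b tumor reached the lowest untreated one. The means were 211 ± 29.04 CPM with anle138b and 331 ± 45.1 CPM untreated (SD, n = 3 each), a fitted log2 change of -0.64 ± 0.12 (SE). The change was -0.75 within the 2-tumor set and -0.60 within the 4-tumor set, and the interaction term was -0.16 (adjusted p = 0.930, edgeR).

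The pseudogenes inside the SAMMSON span had negative log2 changes that did not pass the test. UQCRHP4, on the same strand, had a log2 change of -0.80 ± 0.21 (adjusted p = 0.147, edgeR), and all 3 of its anle138b levels (3.90 to 5.11 CPM) were below the untreated ones (6.27 to 11.5 CPM). RNPC3P1, which shares 336 exonic bases with SAMMSON on the opposite strand so that their reads cannot be told apart, had -0.64 ± 0.17 (adjusted p = 0.165, edgeR). Over 15 alternatives UQCRHP4 did not pass in 13 (adjusted p of 0.0108 to 0.940) and RNPC3P1 in 14 (0.0205 to 0.897). MDFIC2, also on the opposite strand, had -1.04 ± 0.33 (adjusted p = 0.278, edgeR). UQCRHP4 and MDFIC2 share no exonic base with SAMMSON, but their reads cannot be told apart from those of unspliced SAMMSON RNA. MITF, the melanocyte master regulator, ends 31213 bases before SAMMSON begins and had 1116 ± 141 CPM with anle138b and 1125 ± 143 CPM untreated (SD, n = 3 each). Its log2 change was -0.02 ± 0.14 (adjusted p = 0.993, edgeR) and the difference was 0.12 within the 4-tumor set, so no direction can be given. FOXP1, a forkhead factor gene on the other side, had -0.18 ± 0.16 (adjusted p = 0.901, edgeR). It was instead set apart by naming set, with 30.3 and 40.6 CPM in the 2-tumor set against 5.42 to 7.11 CPM in the 4-tumor set, a ratio of 5.63 in summed counts (exact 95% interval 5.01 to 6.33; adjusted p = 1.5e-05, edgeR). MDFIC2 was also higher in the 2-tumor set, by 2.08 ± 0.32 in log2 (adjusted p = 0.00293, edgeR).

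LINC02552 and LINC01537, a pair of intergenic RNAs on chromosome 11, were low in level and lower still with anle138b. LINC02552 (ENSG00000256422; chr11:104445868-104609321, minus strand) had 10, 9 and 55 counts with anle138b and 29, 32 and 194 counts untreated. That is 0.765, 0.719 and 1.95 CPM with anle138b and 1.77, 2.37 and 8.23 CPM untreated. The groups overlapped over all 6 tumors, since anle138b tumor 3 was above untreated tumor 1, and were separate within each naming set, as were 10.4% of genes tested in that direction. The means were 1.143 ± 0.696 CPM with anle138b and 4.12 ± 3.57 CPM untreated (SD, n = 3 each), with a fitted log2 change of -1.80 ± 0.27 (SE), -2.02 within the 2-tumor set and -1.34 within the 4-tumor set.

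LINC01537 (ENSG00000227467; chr11:72570660-72573229, plus strand) had 14, 8 and 29 counts with anle138b and 30, 39 and 107 counts untreated. Its levels were 1.07, 0.639 and 1.03 CPM with anle138b and 1.83, 2.89 and 4.54 CPM untreated, with no overlap between the groups. The means were 0.912 ± 0.237 CPM with anle138b and 3.09 ± 1.37 CPM untreated (SD, n = 3 each), and the fitted log2 change was -1.76 ± 0.32 (SE), with -2.03 within the 2-tumor set and -1.36 within the 4-tumor set. In lung cancer LINC01537 has been described as an RNA that stabilises the message of its neighbour PDE2A, a cyclic nucleotide phosphodiesterase gene 2912 bases away. Here PDE2A had a log2 change of -0.10 ± 0.32 (adjusted p = 0.983, edgeR), which was 0.41 without untreated tumor 1. The other coding neighbours, CLPB of LINC01537 (log2 change 0.02) and PDGFD and CASP4 of LINC02552 (-0.08 and -0.09), had adjusted p-values of 0.941 to 0.990 (edgeR). The interaction terms of LINC02552 and LINC01537 were -0.62 and -0.70 in log2 (adjusted p of 0.854 and 0.858, edgeR).

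LINC00518 and BANCR showed smaller differences with treatment. LINC00518 (ENSG00000183674; chr6:10429255-10434874, minus strand) had 53.9, 54.7 and 42.8 CPM with anle138b and 62.1, 60.2 and 58.2 CPM untreated. Every anle138b tumor was below every untreated one, but by little: the log2 change was -0.26 ± 0.10 (SE), and this RNA varied least of the 8 (coefficient of variation 12.4% over 6 tumors, against 179% for RMEL3). Its neighbours TFAP2A, a lineage transcription factor gene 9596 bases away, and GCNT2, a glycosyltransferase gene, had log2 changes of -0.07 ± 0.10 and -0.16 ± 0.09 (adjusted p of 0.945 and 0.741, edgeR). MIR5689HG, which shares 89 exonic bases with LINC00518 on the other strand, had -0.36 ± 0.24 (adjusted p = 0.820, edgeR). BANCR (ENSG00000278910; chr9:69296682-69311111, minus strand) had 3.44, 4.95 and 23.2 CPM with anle138b and 4.81, 2.81 and 18.8 CPM untreated. Its treatment groups overlapped, and the log2 change was 0.20 ± 0.21 (SE). ENTREP1, a coding gene beside BANCR, had a log2 change of -0.23 ± 0.13 (adjusted p = 0.736, edgeR) and did not pass the test.

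By the threshold used for all genes (edgeR, adjusted p under 0.05), RMEL3 was raised and SAMMSON, LINC02552 and LINC01537 were lowered, that is 1 and 3 of the 6 members tested. Over all 20423 genes 0.656% were raised and 0.397% were lowered. Since the members were chosen with this contrast known, nothing is read from the count beside that background. RMEL3 also passed the filter mainly through the anle138b tumors, where it was high, since untreated tumors 1 and 2 had 6 and 5 counts. Groups without overlap were found for RMEL3 above, where 4.03% of genes did the same, and for SAMMSON, LINC00518 and LINC01537 below, where 4.47% did. These calls rest on few libraries. RMEL3 lost its call without anle138b tumor 3, LINC02552 without either tumor of the 2-tumor set, LINC01537 without either of those or untreated tumor 1 or 2, and SAMMSON without any 1 library other than anle138b tumor 2. No member of the 6 passed the interaction test in edgeR, DESeq2 or limma voom, and 1 had an unadjusted p under 0.05 with each. Over all genes, where 0% were called in edgeR, 1345 genes had an unadjusted interaction p under 0.05, DESeq2 called 31 and limma voom 0. Of 19 tested genes beside the members, 0 passed the treatment test in edgeR, 5 had an unadjusted p under 0.05, and 1 passed in DESeq2 and 1 in limma voom. SALL4P1, which missed the filter, was not among the 19.

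**Figure D3:**
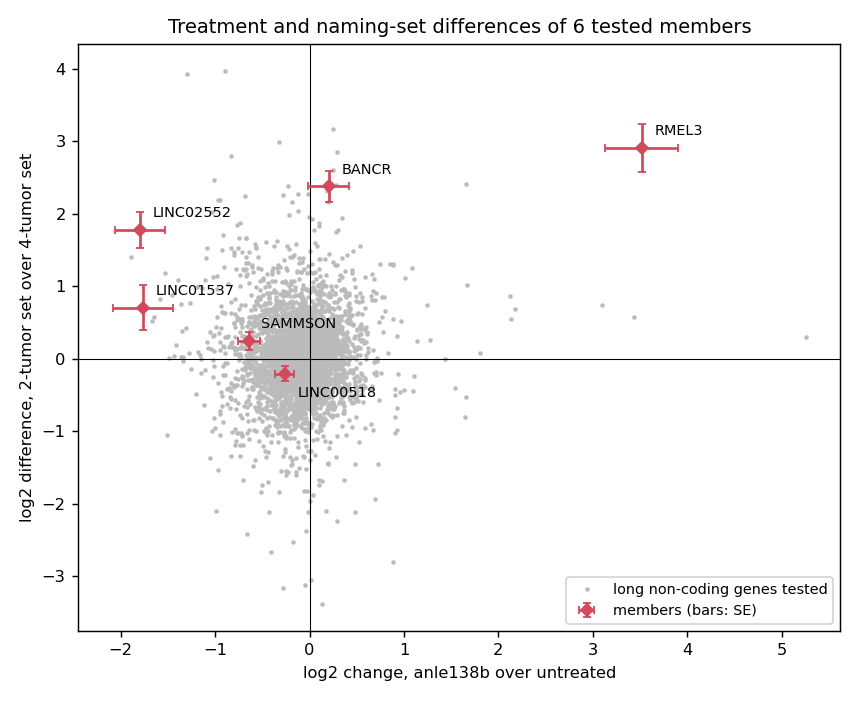
Log2 change with anle138b (x axis) against log2 difference of the 2-tumor over the 4-tumor set (y axis) for the 6 tested members (diamonds, bars are SE) and all tested long non-coding genes (grey points). RMEL3 lies far right and high, LINC02552 left and high, BANCR high near 0 on the x axis, and SAMMSON and LINC00518 near the center.

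Between the naming sets the largest ratios among the 8 RNAs were those of LINC01116 and LINC01087, which were near the limit of detection in the 4-tumor set. LINC01116 is an RNA from the far side of the HOXD homeobox cluster that has been reported in several cancers, and LINC01087 one that has been described in estrogen-receptor-positive breast cancer. Their RefSeq start windows, at chr2:176637560-176637859 on the minus strand and chr2:131636775-131637074 on the plus strand (GRCh38.p14, 250 bases before to 50 after, CpG in capitals), are shown because these RNAs share a pattern of counts between the sets while their starts differ in CpG content.
LINC01116: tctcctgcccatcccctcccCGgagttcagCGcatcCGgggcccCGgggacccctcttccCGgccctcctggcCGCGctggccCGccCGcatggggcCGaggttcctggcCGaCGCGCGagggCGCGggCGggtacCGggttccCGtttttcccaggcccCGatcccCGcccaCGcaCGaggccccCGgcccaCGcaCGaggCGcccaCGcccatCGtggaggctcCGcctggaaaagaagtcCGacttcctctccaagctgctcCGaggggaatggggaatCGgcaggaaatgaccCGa
LINC01087: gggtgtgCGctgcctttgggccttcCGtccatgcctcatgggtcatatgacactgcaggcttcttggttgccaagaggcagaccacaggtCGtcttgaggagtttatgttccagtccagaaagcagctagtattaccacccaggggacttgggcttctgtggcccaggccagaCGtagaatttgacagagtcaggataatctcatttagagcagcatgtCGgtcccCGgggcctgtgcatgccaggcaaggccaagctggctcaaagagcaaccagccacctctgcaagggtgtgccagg
The LINC01116 window holds 34 CpG and 72.7% GC, and 84.4% of all windows hold fewer CpG. LINC01087 has 6 CpG and 56.7% GC. None of the 5 words searched is in either window, nor in that of LINC02552, which has 0 CpG.

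LINC01116 (ENSG00000163364; chr2:176629589-176637931, minus strand) had 195 counts in anle138b tumor 3 and 143 in untreated tumor 3, against 1, 0, 0 and 1 counts in anle138b tumors 1 and 2 and untreated tumors 1 and 2. These are 6.90 and 6.07 CPM in the 2-tumor set and at most 0.0765 CPM in the 4-tumor set. The ratio of summed counts per depth, 338 counts over 2, was 181 (exact 95% interval 49.7 to 1501). LINC01087 (ENSG00000224559; chr2:131637025-131649615, plus strand) had 219 and 149 counts in the 2-tumor set, or 7.75 and 6.32 CPM, against 2, 2, 0 and 2 counts in the 4-tumor set. Its ratio, 368 counts over 6, was 65.7 (29.9 to 180). Both tumors of the 2-tumor set were above all 4 others for each RNA, and anle138b and untreated tumors stood close together within each set. In a fit filtered by naming set, added after the data were seen so that both could enter, their log2 changes with treatment were 0.19 ± 0.36 and 0.38 ± 0.36 (SE).

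BANCR was also separated by naming set, with 23.2 and 18.8 CPM in the 2-tumor set against 2.81 to 4.95 CPM in the 4-tumor set and a log2 difference of 2.38 ± 0.21 (SE). RMEL3 and LINC02552 had set differences of 2.91 ± 0.34 and 1.78 ± 0.25 beside their treatment changes, and overlapped between sets. Without anle138b tumor 3 the set difference of RMEL3 was 1.57. LINC01537, SAMMSON and LINC00518 differed by 0.71 ± 0.31, 0.25 ± 0.12 and -0.20 ± 0.11. In edgeR 3 of 6 members were called higher in the 2-tumor set (RMEL3, BANCR and LINC02552) and 0 lower, where 8.32% and 7.14% of all genes were called. The call of RMEL3 was lost without anle138b tumor 3 and that of LINC02552 without untreated tumor 3, where its difference was 1.40. Without overlap and higher in the 2-tumor set was BANCR, as were 19% of genes tested. LINC01116 and LINC01087 were as well, but they missed the low-count filter and are not among the genes behind that share. The members were chosen with this contrast known too, so these counts are read as nothing more than a description.

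The HOXD cluster, whose homeobox factors set position along the body axis, was looked at because LINC01116 lies on its far side. The nearest coding gene on that side, MTX2, ends 291564 bases from LINC01116, and the HOXD genes lie beyond MTX2. HOXD13 had 194 and 107 counts in the 2-tumor set (anle138b, then untreated) and 0 counts in all 4 other tumors, at least 107-fold higher against a floor of 3 counts over the 4-tumor set. HOXD9 had 64 and 48 counts against 2 in the 4-tumor set summed, a ratio of 60.0 (exact 95% interval 16.2 to 501), and HOXD8 had 131 and 93 counts against 16, a ratio with an interval of 9.03 to 26.7. HOXD10 had 7 and 8 counts against 0, at least 5.36-fold higher. These 4 genes missed the low-count filter of the main fit. In the fit filtered by naming set, HOXD13, HOXD9 and HOXD8 differed by 9.64 ± 0.60, 5.63 ± 0.56 and 3.85 ± 0.46 in log2 (SE). They entered that fit through the 2-tumor set, where they are high, so no test is read from it. HOXD10 did not enter it. HOXD3, HOXD4 and the neighbouring metaxin gene MTX2 were not called: their log2 set differences were 0.18, -0.05 and 0.06 (adjusted p of 0.715, 0.902 and 0.743, edgeR). HAGLR (HOXD-AS1), a long non-coding RNA of the list below, was called higher in the 2-tumor set, at 0.98 in log2 (adjusted p = 0.0213, edgeR). At few counts, HOXD1 had 8 and 4 in the 2-tumor set against 2, and EVX2 4 and 5 against 0. HOXD11 had 3 and 0 against 0, and HOXD12 2 and 1 against 1. LINC01117, which overlaps LINC01116 on the other strand by 222 exonic bases so that their reads cannot be told apart, had 24 and 17 counts against 0, at least 14.6-fold higher. None of the 3 tested cluster genes passed the treatment test in edgeR, DESeq2 or limma voom, and 0 had an unadjusted p under 0.05. Beside LINC01087, the pseudogene GRAMD4P8, which shares 119 exonic bases with it, had 36 and 12 counts in the 2-tumor set against 4 in the 4-tumor set, and CCDC74A had 28 and 18 counts against 14.

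**Figure D4:**
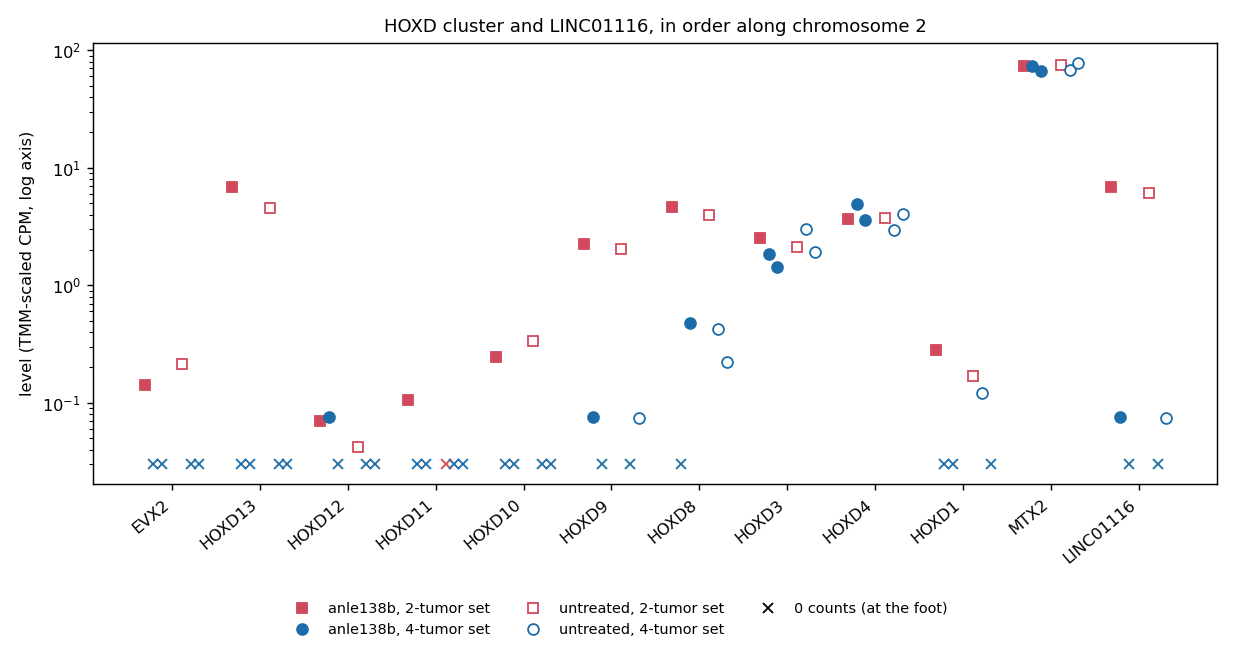
Level (TMM-scaled CPM, log axis) of HOXD cluster genes, MTX2 and LINC01116 in each tumor, ordered by start along chromosome 2. Filled symbols are anle138b and open symbols untreated, squares the 2-tumor set and circles the 4-tumor set, and crosses at the foot are 0 counts. HOXD13, HOXD9, HOXD8 and LINC01116 stand higher in the squares, and HOXD3, HOXD4 and MTX2 overlap.

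Among other melanoma-linked long non-coding RNAs none passed the treatment test in edgeR. Of 42 listed, 37 matched an identifier and 26 were tested, of which 0 were raised and 0 lowered (edgeR; 2 with an unadjusted p under 0.05, and 0 called in DESeq2 and in limma voom). Their median log2 change was -0.10, beside -0.09 for the 3675 long non-coding genes tested and -0.01 for all genes. The smallest p-values were those of LINC00520, at -0.36 (adjusted p = 0.371), and MIR31HG, the host of a microRNA, at -1.02 (adjusted p = 0.475). Between the naming sets 4 of the 26 were called higher in the 2-tumor set and 1 lower (edgeR). Of the 3675 long non-coding genes tested 204 were called higher and 158 lower, and of all genes 8.32% and 7.14%. Of the listed RNAs not tested, LINC00632 had 234 counts in the 2-tumor set against 9, H19 196 against 22 and ZEB1-AS1 85 against 11. FENDRR went the other way, with 0 against 6. Among all tested long non-coding genes 13 were raised and 15 lowered, or 0.762%, and 12 and 12 without the members.

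The transcription factors and partners tied to these RNAs in melanoma did not pass the treatment test either. Of 14 listed 13 were tested, with 0 raised, 0 lowered and a median log2 change of 0.03 (edgeR; 1 with an unadjusted p under 0.05, and 0 called in DESeq2 and in limma voom). SOX10, which drives SAMMSON, had 478 ± 38.3 CPM with anle138b and 469 ± 53.5 CPM untreated (SD, n = 3 each). C1QBP, the gene of the SAMMSON partner p32, had 162 ± 16.2 CPM with anle138b and 157 ± 23.5 CPM untreated. The smallest p-values were those of TFAP2C, a relative of TFAP2A, at a log2 change of 0.56 (adjusted p = 0.268), and the neural-crest factor gene POU3F2, at 0.21 (adjusted p = 0.787). CXCL11, a chemokine gene linked to BANCR in melanoma cells, did not pass the filter. Between the naming sets 3 of the 13 were higher in the 2-tumor set and 1 was lower (edgeR). Of all genes tested, 8.32% were called higher and 7.14% lower. FOXP1, described above, POU3F2 (0.56 in log2, adjusted p = 0.0233) and XRN2 (0.33, adjusted p = 0.048) were higher, and TFAP2A was lower, at -0.61 (adjusted p = 0.00577).

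The genes most like SAMMSON, LINC00518 and BANCR over the 6 tumors were looked up among 14077 named genes with an average log2 CPM of at least 1, by the root mean square difference of log2 CPM centered on each gene's mean. For SAMMSON they were ARNT2-DT (0.11), TM9SF5P (0.11) and NUDT16-DT (0.13), where SAMMSON itself varied by 0.36 on that scale. For LINC00518 they were DENND2D (0.03), KDM6B (0.04) and GP1BA (0.04), beside its own 0.17, and for BANCR they were ZSWIM5, ZNF354C and SLCO1A2 (0.17 each), beside its own 1.16. With 6 points from the same libraries such likeness is a description.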

How the data were processed

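Per the labels' protocols, Trizol was used for RNA and the TruSeq RNA kit v2 for libraries. The authors deposited raw counts per gene, 1 file per tumor, and the submitters' processing notes name bcl2fastq 2.17.1.14, STAR 2.5.2a, featureCounts 1.5.0-p1 and build hg38. The annotation, the strand setting and the handling of mouse reads are not given in the sources used here. Positions came from GENCODE 29 (GRCh38), which holds 60596 of 60617 identifiers; symbols came from a gene name table, and RMEL3 is listed in GENCODE as AC025470.2. Start windows (5 of 8 members) came from RefSeq.

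Genes were kept by filterByExpr by treatment group (minimum count 10, total 15), scaled by TMM and tested with edgeR 4.0.16 (quasi-likelihood, a model of treatment plus naming set with 3 residual degrees of freedom, R 4.3.3) with Benjamini-Hochberg adjustment over all genes at 0.05. The biological coefficient of variation was 12.8%. The interaction had 2 residual degrees of freedom, all from the 4-tumor set. DESeq2 1.42.0, limma 3.58.1 voom, other scalings, filters and left-out libraries were alternatives. Log2 levels used a prior count of 2. As a check for a repeated library, replicate counts were compared with counting noise (chi-square per degree of freedom 10.2 to 62.8), and each library was counted as 1 replicate.

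The members and gene lists were chosen with earlier results of these data known. Named were every member, every gene overlapping or flanking one (1 is not reported here), list genes passing the test or with the 2 smallest p-values, and the 3 genes most like each member of sufficient level; further list genes were named after their values were seen.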

Additional observations from a re-analysis of the deposited data

How the results depend on the processing

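The sign of each tested member's treatment change was the same in every alternative run, while calls were not. Against 215 genes called with treatment, there were 9 with no naming set term, 754 with no low-count filter, 412 with DESeq2, 92 in the 4-tumor set alone and 89 to 392 with 1 library left out. Against 4 members called, there were 0 with no naming set term, with a filter of 50 counts in 3 libraries and in the 4-tumor set alone, and 0 to 4 with 1 library left out. The filter of 50 counts removed RMEL3, LINC02552 and LINC01537, so they could not be called there, with treatment or between the naming sets. RMEL3 ranged from 2.39 to 3.79 in log2, SAMMSON from -0.77 to -0.57, LINC02552 from -1.89 to -1.45 and LINC01537 from -2.04 to -1.43. Against 3157 genes called between the naming sets, there were 6250 with no filter and 993 to 5960 with 1 library left out (993 without untreated tumor 3, 5960 without anle138b tumor 2), and against 3 members 5 with no filter, 5 with the filter by naming set, 1 with the filter of 50 counts and 2 to 5 with 1 library left out. SAMMSON and LINC00518 per kilobase were 99.4 and 35.7 with the longest transcript.

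Uncalled genes near 0 changed sign. In the 4-tumor set alone the log2 change was 0.11 for MITF, 0.0029 for FOXP1, 0.064 for PDGFD, 0.014 for CASP4 and 0.16 for HNRNPA3. With 1 library left out, the ranges were -0.13 to 0.12 for MITF, -0.28 to 0.015 for FOXP1, -0.23 to 0.074 for PDGFD, -0.16 to 0.024 for CASP4, -0.039 to 0.080 for CLPB, -0.41 to 0.41 for PDE2A, -0.10 to 0.0048 for MTX2, -0.12 to 0.17 for HNRNPA3, -0.61 to 0.044 for HOXD3 and -0.0036 to 0.29 for HOXD4. The cause was not tested. No paired analysis was possible because the tumor numbers used here follow listing order and the labels hold none that pair treated with untreated tumors; the naming set is a term of the model instead. Counts of at most 39 per library in the 4-tumor set limit the precision of the changes of RMEL3, LINC02552 and LINC01537 there.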
